A study of Arabidopsis thaliana with 4 samples.

Results

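The comparison set seedlings of a lincRNA11195 mutant against Col-0 wild type seedlings of Arabidopsis thaliana, both treated with abscisic acid (ABA), across all genes of a table of raw RNA sequencing counts. Its members were chosen by their column labels, which gave 6 of the 12 libraries of the series, 3 of the mutant with ABA and 3 of wild type with ABA. The question it addresses is which mRNAs differ between the genotypes while the hormone is present.

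All plants were 2 weeks old, carried the Col-0 background per the labels and grew on MS-based medium. Both groups compared here had been under ABA for 12 h, at a concentration that the labels do not give, and differed by label in genotype alone: no mutation in wild type, and a mutation of the long intergenic noncoding RNA lincRNA11195 in the other line. The remaining 6 libraries came from untreated wild type and untreated mutant seedlings, 3 of each, and shared no library with this comparison. Total RNA was extracted with Trizol, treated with DNase and made into libraries with a stranded mRNA kit. The series text calls the libraries of a group biological replicates and does not say whether each came from plants grown apart, so p-values measure the spread between these libraries. The labels name a single mutant, so the effect of the mutation and that of anything else in which the seed stocks differ cannot be told apart. The lincRNA itself was not analysed here, because the annotation names no gene by it. In whole seedlings, fewer cells of a type and less RNA per cell also cannot be told apart.

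ABA accumulates in drought. It binds PYR/PYL receptors, which then inhibit clade A PP2C phosphatases and so release SnRK2 kinases, and these activate transcription factors that switch on genes of stress protection such as RD29A. The hormone also lowers growth and photosynthesis genes and acts against several arms of plant immunity, in which membrane receptors and intracellular disease resistance receptors of the NBS-LRR type turn on defence. Long intergenic noncoding RNAs are transcripts from between genes that encode no known protein, and some of them act on the expression of other genes.

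The wild type ABA libraries held 20695204 to 21861665 counts and the mutant ABA libraries 17988131 to 19262909. At these depths 3 counts, the floor used below, equal 0.137 to 0.167 CPM, the unit of counts scaled to the library's depth. Markers of root tissues, guard cells and mesophyll were present in both groups. The 16 root markers summed to 90.33 to 95.09 CPM in wild type and 73.83 to 89.67 CPM in the mutant, and the 10 stomatal markers to 108 to 111.3 and 88.45 to 102.7 CPM. Of the 12 seed and embryo markers, CRU2, CRU3, SESA2, SESA3, SESA4 and LEC1 had 0 counts in both groups, and the list summed to 1.376 to 1.429 CPM in wild type and 0.851 to 1.152 CPM in the mutant. The share of rRNA, snoRNA and snRNA genes was 0.0777% to 0.0897% of counts in wild type and 0.0569% to 0.0653% in the mutant. No marker of any of these 3 lists passed the test below, and the part of these shifts in the results was not tested.

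Under ABA the mutant differed from wild type mostly by higher transcripts. Of 21322 genes tested, 382 were called (1.79%), of which 344 were higher in the mutant (1.61%) and 38 lower (0.178%). Among the called genes 196 were higher and 20 lower by at least 2-fold, and 42 were higher and 6 lower by at least 4-fold. The median log2 fold change was 1.07 for the genes called higher and -1.13 for those called lower, against -0.00691 over all genes tested. A gene was called where its adjusted p was under 0.05 in edgeR's quasi-likelihood test with Benjamini-Hochberg adjustment, and every adjusted p for a gene comes from that fit. In all 382 called genes the 3 mutant libraries lay apart from the 3 wild type libraries, as they did in 4135 of all genes tested (19.4%). The count rested on few libraries. It was 167 without wild type ABA replicate 2, 192 without mutant ABA replicate 1 and 226 without mutant ABA replicate 2, and the 38 lower calls were 21, 19, 11, 11 and 24 without wild type ABA replicate 1 or 2 or mutant ABA replicate 1, 2 or 3. In all, 144 of the 382 genes were called in the same direction under each of 14 alternative settings. DESeq2's Wald test called 755, 591 higher and 164 lower. A fit of only the 6 ABA libraries called 255, 230 higher and 25 lower.

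Among genes at 5 CPM or more, the largest rise was that of MRD1, a gene named for its lower level in a methionine-overaccumulating mutant. Its wild type ABA libraries stood at 0.0493, 0 and 0.04302 CPM, and its mutant ABA libraries at 24.1, 26.45 and 30.43 CPM. Wild type thus held 2 counts in all and the mutant 1573, a ratio of 868 whose exact 95% interval from counting error ran from 240 to 7170 (adjusted p = 7.13e-09). HEI10, the gene next to it in the annotation, which encodes a RING/U-box protein known from meiotic crossing over, stood at 2.169, 2.82 and 2.796 CPM in wild type and at 10.47, 10.38 and 9.044 CPM in the mutant (log2 fold change 1.94 ± 0.17 SE, n = 3 per group, adjusted p = 9.47e-05). The groups of both neighbours did not overlap.

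QQS, a gene of Arabidopsis known for its effect on leaf starch, had 4.782, 12.09 and 2.796 CPM in wild type and 98, 80.07 and 57.99 CPM in the mutant (3.59 ± 0.53, adjusted p = 0.00324). The ankyrin repeat gene AT2G24600 had 1.775, 1.482 and 2.839 CPM in wild type and 42.39, 19.18 and 26.65 CPM in the mutant (3.84 ± 0.29, adjusted p = 4.07e-05). For both genes every mutant library exceeded every wild type library several times over, while the libraries of a group differed among themselves by a factor that was smaller than this gap. MRD1, HEI10 and QQS belong to a panel of 4 loci known to vary between Arabidopsis lines. The panel was written with earlier results of these data known, so its 3 calls are not an independent result. The fourth, AT3G01345, stood at 0.0493, 44.98 and 0.3011 CPM in wild type and at 0.0501, 0.1526 and 0 CPM in the mutant. Its level in wild type came almost wholly from replicate 2, and it was not called (adjusted p = 0.262).

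WRKY53, a transcription factor of leaf senescence, had 0.6902, 1.195 and 1.42 CPM in wild type and 7.766, 8.241 and 8.512 CPM in the mutant (2.87 ± 0.24, adjusted p = 6.61e-05). BHLH101, a transcription factor of the response to low iron, had 1.43, 2.103 and 0.6023 CPM against 9.72, 12.26 and 5.32 CPM (2.73 ± 0.37, adjusted p = 0.00186). NUDT24, which encodes a nudix hydrolase, had 0.7395, 2.82 and 2.71 CPM against 10.87, 9.919 and 17.45 CPM (2.60 ± 0.41, adjusted p = 0.00481). In all 3 genes the groups stood apart, with wild type at a few CPM or less. In the untreated libraries of both genotypes NUDT24 stood at 0 to 0.1217 CPM, under the floor. SOB5, AT1G19380, AT1G65486 and AT5G44568 made up the rest of the 10 largest rises among genes at 5 CPM or more, between 2.63 and 2.96. Called genes below that level, such as NAC090 and PP2-B13, are not in this order. Each of these 10 genes was called under each of the 14 alternative settings.

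**Figure D1:**
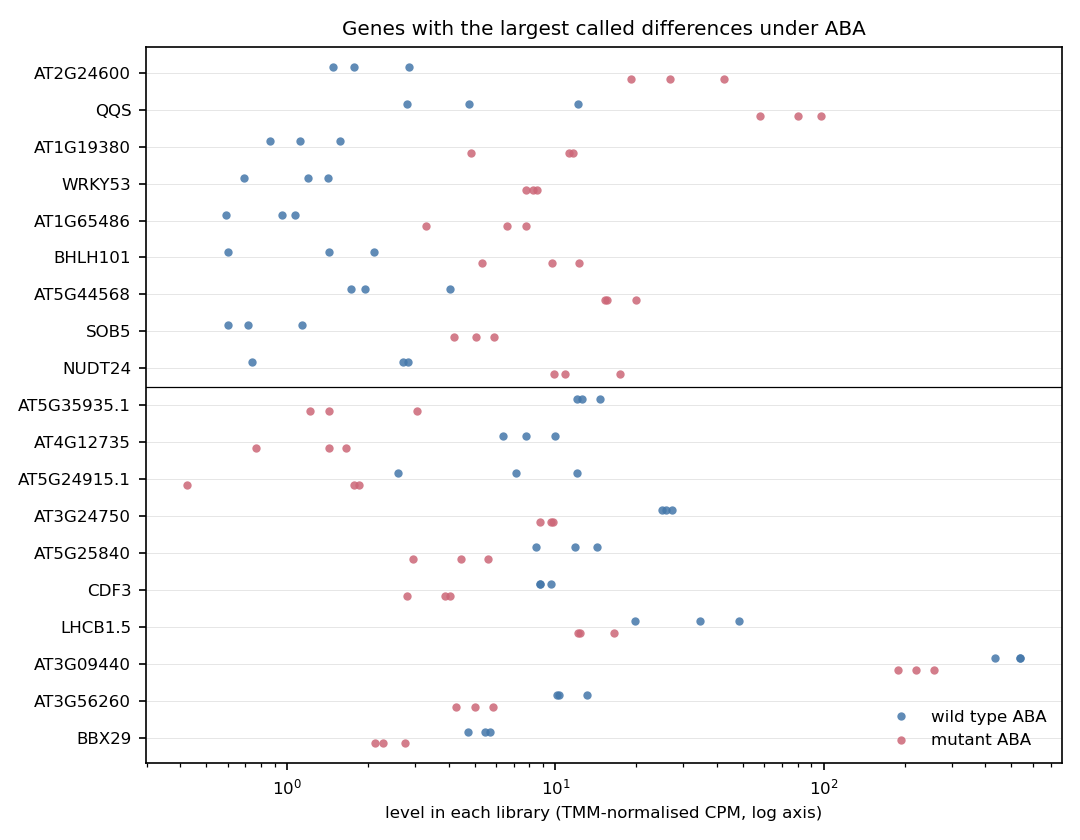
TMM-normalised CPM (log axis) in each of the 6 ABA libraries, blue for wild type and red for the mutant, for genes at 5 CPM or more: 9 of the 10 with the largest rise (top; MRD1 is left out because 1 of its libraries is at 0) and the 10 with the largest fall (bottom). In every row the 3 points of one genotype lie apart from the 3 of the other, and in LHCB1.5 the lowest wild type library, at 19.79 CPM, comes close to the highest mutant library, at 16.58 CPM.

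Fewer genes were lower than higher. CDF3, a cycling DOF transcription factor, had 8.726, 9.608 and 8.776 CPM in wild type and 4.058, 2.798 and 3.884 CPM in the mutant (-1.33 ± 0.18, adjusted p = 0.0015). EXPA10, an expansin, whose family loosens cell walls, had 55.61, 56.93 and 52.31 CPM against 21.39, 25.28 and 28.41 CPM (-1.13 ± 0.15, adjusted p = 0.00147). AT3G24750, annotated as an uncharacterised protein, had 27.21, 24.9 and 25.94 CPM against 9.62, 9.818 and 8.778 CPM (-1.47 ± 0.17, adjusted p = 0.000596). In these genes the wild type libraries lay within a few CPM of each other and lay at 2 to 3 times the mutant level. These falls and that of AT3G56260 (-1.15 ± 0.17) were called under each of the 14 alternative settings.

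The steepest fall among genes at 5 CPM or more was that of the pseudogene AT5G35935.1, with 12.52, 14.63 and 12.05 CPM in wild type and 3.056, 1.221 and 1.436 CPM in the mutant (-2.77 ± 0.30, adjusted p = 0.000341). AT4G12735, an uncharacterised protein gene, followed with 7.789, 6.357 and 9.981 CPM against 1.653, 0.763 and 1.436 CPM (-2.64 ± 0.52, adjusted p = 0.0189), a call that was lost without wild type ABA replicate 3 (-2.45) or mutant ABA replicate 1 (-2.87), 2 (-2.38) or 3 (-2.73). AT3G09440, an Hsp70 family gene, had 539.1, 540.3 and 436 CPM against 220.4, 189.1 and 258 CPM (-1.18 ± 0.21, adjusted p = 0.0102), and adjusted p was 0.0567 without wild type ABA replicate 2 (-1.13), 0.0571 without mutant ABA replicate 1 (-1.18) and 0.0589 without mutant ABA replicate 2 (-1.08). The groups of all 3 did not overlap. The pseudogene AT5G24915.1 (-2.41 ± 0.54) lost its call in 5 of the 6 left-out libraries (all but wild type ABA replicate 3; -2.70 to -1.82), and AT5G25840 (-1.41 ± 0.27) in 4 of the 6 (wild type ABA replicates 1 and 2 and mutant ABA replicates 1 and 2; -1.43 to -1.20).

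A transcription factor gene of the ABA response was also lower, at a level too low for the 5 CPM limit. ABO3, a WRKY gene named for the ABA oversensitivity of its mutant and chosen here after its values were seen, stood at 0.9367, 0.3346 and 1.463 CPM in wild type with ABA and at 0, 0.05087 and 0 CPM in the mutant with ABA. All 3 mutant ABA libraries were under the floor of 3 counts and all 3 wild type ABA libraries were above it (adjusted p = 0.00545). The untreated libraries of both genotypes held 0.5723 to 0.9125 CPM, with no overlap to the mutant ABA libraries.

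No gene of the core ABA pathway was called in edgeR's test. The 5 lists held 10 receptors, 8 of the phosphatases that they inhibit, 10 kinases of the SnRK2 family, 10 ABA transcription factors and 33 ABA-induced markers, 71 genes in all, where 1.79% of all genes were called. At an unadjusted p under 0.05 lay 3 members that were higher, all receptors, and 9 that were lower, against 2796 of all 21322 genes. DESeq2's Wald test called 2 receptors higher and 1 marker, 1 phosphatase and 1 transcription factor lower. Over all genes it called 591 higher and 164 lower. The smallest adjusted p in these lists in edgeR's test was 0.0627, for the receptor PYL7. The marker RD29A had 1302, 1365 and 851.3 CPM in wild type and 798.1, 728.2 and 801.2 CPM in the mutant (-0.60 ± 0.29, adjusted p = 0.405), and its groups did not overlap. RAB18, a dehydrin gene, had 559.5, 311.4 and 149.4 CPM against 181.2, 80.12 and 104.2 CPM (-1.48 ± 0.63, adjusted p = 0.34). Its groups overlapped, and its wild type libraries spread over a wider range than the mutant ones. RD29B had a difference of -0.59 ± 0.97.

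The values of the markers and the phosphatases lay mostly below 0, while those of the receptors and the SnRK2 kinases did not. PYL7, HAI2 and PP2CA, which were not called, are named after their values were seen. Of the 33 ABA-induced markers 29 had a log2 fold change below 0, with a median of -0.444 and a range of -1.48 to 0.299. In 6 of the 33 the groups did not overlap, all with lower mutant libraries. Over all genes tested, 1858 of 21322 did not overlap and were lower in the mutant (19.4% did not overlap in either direction). All 8 PP2C phosphatases were below 0, with a median of -0.506, among them HAI2 (-0.91 ± 0.28), PP2CA (-0.66 ± 0.23), HAI1 (-0.83 ± 0.39) and ABI1 (-0.16 ± 0.20). In 4 of the 8 the groups did not overlap. Over all genes tested 10872 were below 0 and 10442 above. The receptors had a median of 0.188, with 7 of 10 above 0, and the SnRK2 kinases 0.0785, with 6 of 10 above 0. The ABA transcription factors had a median of -0.121. For PYL4 (0.06 ± 0.26) and the ABA synthesis gene NCED3 (0.09 ± 0.30) the difference was smaller than its error. In a fit of the 6 ABA libraries with their replicate numbers as a block, which was added after the data were seen and treats libraries of 1 number as a pair, 5 of the ABA-induced markers and 3 of the PP2C phosphatases were called lower, and 1095 of all genes were called.

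A single gene of hormone breakdown was called. CYP707A3, one of the hydroxylases that inactivate ABA, had 17.55, 19.55 and 15.96 CPM in wild type and 30.96, 39.37 and 28.09 CPM in the mutant (0.89 ± 0.15, adjusted p = 0.00594), with no overlap. It was the single call among 12 measured genes of ABA synthesis and breakdown (1 higher, 0 lower, median -0.0878), where 1.79% of all genes were called. Of the 12 genes 4 were above 0 and 8 below. At an unadjusted p under 0.05 lay 1 higher and 1 lower, against 2796 of all 21322 genes. DESeq2's Wald test called 1 higher and 1 lower, against 591 and 164 of all genes.

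Light harvesting, photosystem and aquaporin genes were lower in value but rarely in the test. Each of the 25 genes for antenna proteins and the small subunit of Rubisco had a log2 fold change below 0, with a median of -0.695. In 14 of them the groups did not overlap. Over all genes tested, 1858 of 21322 did not overlap and were lower in the mutant (19.4% in either direction). LHCB1.5 alone was called, where 1.79% of all genes were, and 15 were lower at an unadjusted p under 0.05 and 5 in DESeq2's Wald test. Over all 21322 genes, 2796 lay under that p in either direction, and DESeq2 called 164 lower. The list summed to 10370 to 11680 CPM in wild type and 5258 to 9989 CPM in the mutant. LHCB1.5, an antenna protein gene of photosystem II, stood at 48.46, 34.7 and 19.79 CPM in wild type and at 16.58, 12.31 and 12.13 CPM in the mutant (-1.33 ± 0.27, adjusted p = 0.0233). The groups did not overlap, but its wild type libraries spread over more than 2-fold. The call was lost once gene length and GC content were corrected for (-0.81) and without wild type ABA replicate 1 (-0.99) or 2 (-1.32) or mutant ABA replicate 2 (-1.26) or 3 (-1.25), and reads may be shared between close LHCB1 copies, so its value is uncertain. Of 24 photosystem and electron transport genes 23 were below 0 (median -0.418), and of 18 aquaporins, the water channels, all were (median -0.465), with 0 called in either list by edgeR's test. At an unadjusted p under 0.05 lay 7 and 3 of them, and DESeq2's Wald test called 2 and 0. Of 19 expansins EXPA10 was called.

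**Figure D2:**
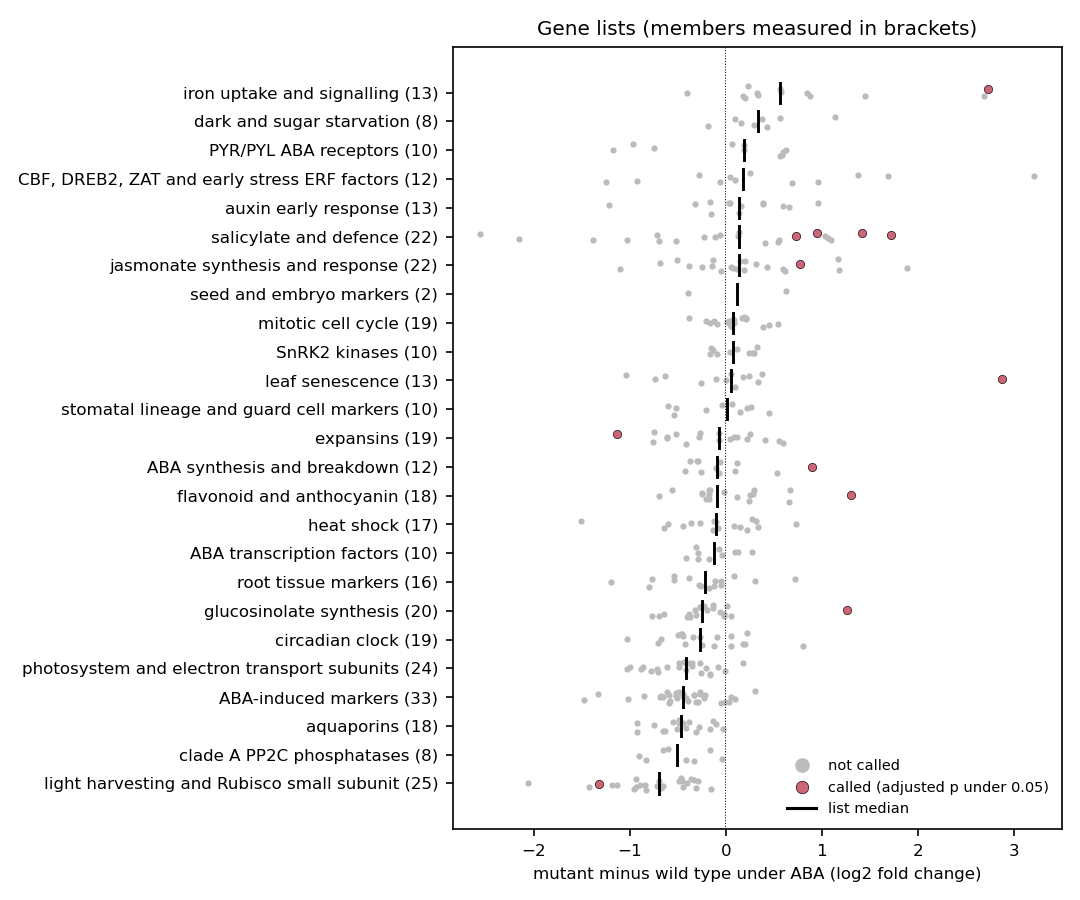
Log2 fold change, mutant minus wild type under ABA, of every measured member of 25 gene lists, with called members in red, the others in grey and a bar at each list's median. The dotted line is the median of all genes tested, -0.00691; the light harvesting list lies farthest to the left, at -0.695, and the iron list farthest to the right, at 0.565.

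Of 22 measured salicylate and defence genes 4 were called in edgeR's test, all higher, where 1.61% of all genes were called higher (median 0.135, 12 above 0). At an unadjusted p under 0.05, 9 were higher and 2 lower, against 2796 of all 21322 genes. DESeq2's Wald test called 7 higher and 2 lower, against 591 and 164 of all genes. By number of calls in edgeR's test this list came first among the lists. SARD1, a transcription factor that drives salicylate synthesis, had 7.888, 8.413 and 13.03 CPM in wild type and 35.87, 27.01 and 34.21 CPM in the mutant (1.72 ± 0.22, adjusted p = 0.001). WRKY70, a transcription factor of salicylate signalling, had 52.01, 79.87 and 117.9 CPM against 167, 203.6 and 296.7 CPM (1.42 ± 0.29, adjusted p = 0.0237). Its groups did not overlap, although each spread over nearly 2-fold or more. WRKY18, a related regulator, had 18.34, 16.59 and 12.35 CPM against 28.01, 30.47 and 32.72 CPM (0.95 ± 0.14, adjusted p = 0.00346; 0.65 and not called after the length and GC correction). SAG101, a partner of the immune regulator EDS1, was higher by 0.73 ± 0.14. The count of 4 fell to 2 without wild type ABA replicate 1 or 2 or mutant ABA replicate 2. Each of these left-out libraries ended the calls of WRKY70 (1.17, 1.39 and 1.48) and SAG101 (0.68, 0.70 and 0.71), as did mutant ABA replicate 3 for WRKY70 (1.15) and mutant ABA replicate 1 for SAG101 (0.71). EDS1 itself (0.56 ± 0.13, adjusted p = 0.0583) and PAD4 (0.54 ± 0.14, adjusted p = 0.073) did not pass.

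Members of the same list at the far end of the pathway, picked after their values were seen, had other values. PR1, the classic marker of salicylate defence, stood at 18.78, 0.0478 and 13.42 CPM in wild type and at 5.311, 0.05087 and 0.0532 CPM in the mutant, so that both groups held libraries near 0 and the gene was not called (adjusted p = 0.394). PAD3, an enzyme of camalexin synthesis, had 25.78, 4.78 and 18.8 CPM against 5.161, 3.561 and 2.341 CPM (adjusted p = 0.06), with overlap in wild type replicate 2.

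Some genes known from immune signalling were among those called higher. They were picked from the called genes after their values were seen, so they are examples and say nothing of the share of such genes that changed. MPK3, a MAP kinase of the early immune response, had 56.45, 55.59 and 56.96 CPM in wild type and 151.3, 153.4 and 157.6 CPM in the mutant (1.45 ± 0.13, adjusted p = 9.47e-05). RBOHD, the oxidase that makes the extracellular oxidative burst, had 24.4, 27.53 and 27.49 CPM against 83.87, 58.09 and 70.6 CPM (1.42 ± 0.16, adjusted p = 0.00039). SOBIR1, a kinase that works with receptor-like proteins, had 46.88, 50.38 and 63.11 CPM against 185.2, 128.1 and 163.8 CPM (1.57 ± 0.16, adjusted p = 0.000278). In each the groups were far apart, and in MPK3 the 3 libraries of a genotype were nearly equal. WRKY33, a transcription factor of camalexin synthesis, was higher by 1.67 ± 0.24 and CPK28, a calcium-dependent kinase that dampens immune signalling, by 1.59 ± 0.14. BIR1, a receptor-like kinase that restrains defence, was higher by 0.89 ± 0.14 and NPR3, a salicylate receptor, by 1.14 ± 0.18. All 7 were called under each of the 14 alternative settings.

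Grouped by the annotation's product names, the measured genes made 180 families of at least 15. By the share called, ROTUNDIFOLIA-like genes came first, with 3 of 15 (20%), and disease resistance genes next, with 21 of 118 (17.8%), which was also the largest number of calls in a family. All of these calls were higher in the mutant, against 1.61% of all genes tested called higher. The disease resistance genes had a median log2 fold change of 0.431 and 95 of them were above 0. By class, 17 of 91 genes with the TIR domain were called higher (18.7%, median 0.392) and 4 of the other 27 (14.8%, median 0.517). The families described were picked after the values were seen, so no test is given for them. The count was 10 without wild type ABA replicate 1, 8 without wild type ABA replicate 2, 9 without mutant ABA replicate 1 and 8 without mutant ABA replicate 2, and 0 members were called lower in any of these fits. With the length and GC correction it was 29 higher and 0 lower.

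WRR4, a TIR-NBS-LRR gene of resistance to white rust, was the most abundant of the strongly raised members, with 46.29, 50.57 and 45.77 CPM in wild type and 212.1, 153.1 and 142.8 CPM in the mutant (1.83 ± 0.20, adjusted p = 0.000381). AT1G63860 had 4.88, 7.265 and 9.249 CPM against 54.91, 32.51 and 40.65 CPM (2.58 ± 0.24, adjusted p = 0.00017), and AT1G63750 had 3.845, 4.015 and 4.431 CPM against 28.26, 19.89 and 21.28 CPM (2.49 ± 0.19, adjusted p = 4.07e-05). In all 3, mutant ABA replicate 1 was the highest library and no group overlapped with the other. AT5G58120 was higher by 1.90 ± 0.23, AT1G56540 by 1.83 ± 0.21 and AT5G41740 by 1.68 ± 0.19. ADR1, a helper of other resistance proteins, was higher by 0.67 ± 0.14. At the other end of the family AT1G72860 had the lowest value, -0.52 ± 0.29, and did not pass.

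**Figure D3:**
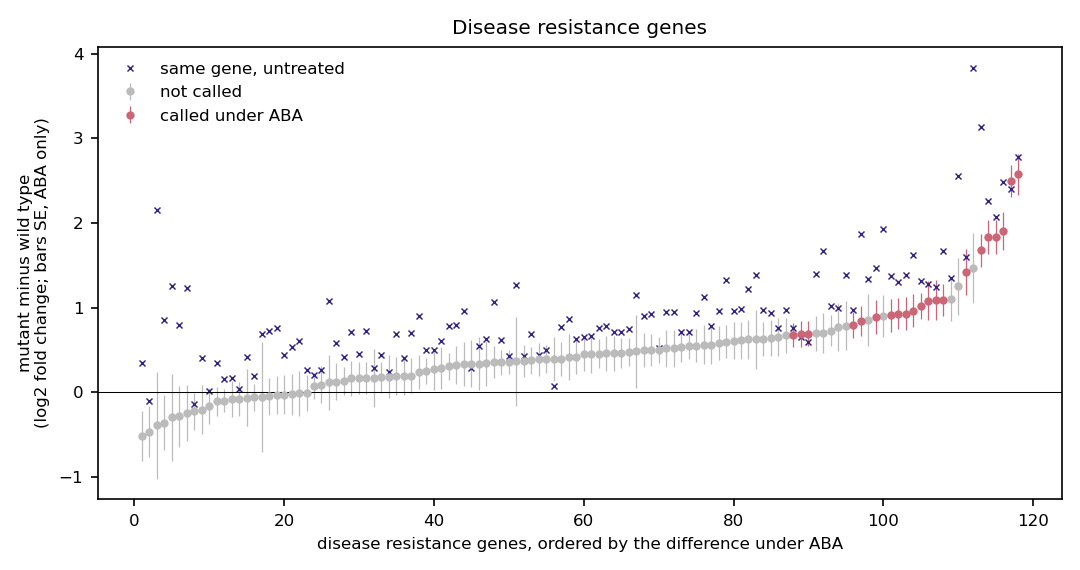
Log2 fold change, mutant minus wild type, of the 118 disease resistance genes ordered along the x axis by their value under ABA. Dots with SE bars are the values under ABA, red where called (21 genes) and grey where not, and crosses are the untreated values of the same genes; 95 dots lie above 0.

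The ROTUNDIFOLIA-like genes, which encode small peptides of plant form, had a median of 0.857 and 12 of 15 above 0. RTFL17 was higher by 1.28 ± 0.21, a call lost without wild type ABA replicate 2 (1.22), and RTFL16 by 1.32 ± 0.26, lost without wild type ABA replicate 1 or 2 or mutant ABA replicate 2 (1.16 to 1.4). RTFL6 (1.09 ± 0.25) lost its call whichever of the 6 ABA libraries was left out (0.98 to 1.20) and with the length and GC correction (0.86).

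Of 29 genes with the product name of cysteine-rich receptor-like kinases 4 were called, all higher (13.8%, median 0.346). Over all genes tested 1.61% were called higher, the share to set beside each count here. CRK10 had 24.01, 31.12 and 37 CPM in wild type and 153.2, 113.6 and 126.2 CPM in the mutant (2.09 ± 0.18, adjusted p = 9.47e-05). CRK40 was higher by 2.11 ± 0.21, CRK41 by 2.02 ± 0.22 and CRK2 by 0.79 ± 0.13. CRK14, a gene of the same kind under another product name, was higher by 1.66 ± 0.27. All 5 were called under each of the 14 alternative settings. Of 58 genes with a WRKY symbol 5 were called (8.62%), all higher (WRKY18, WRKY33, WRKY46, WRKY53 and WRKY70), while ABO3, which carries another symbol, was lower. WRKY46 (1.37 ± 0.28) lost its call without wild type ABA replicate 1 (1.21) or 2 (1.37) or mutant ABA replicate 1 (1.27) or 3 (1.30), and with the length and GC correction (1.14). Of 62 genes with a NAC symbol 4 were called, all higher, among them NAC062 at 43.58 to 49.99 CPM in wild type and 105 to 110.2 CPM in the mutant (1.23 ± 0.12). Of 19 EXO70 genes, subunits of the exocyst that tethers secretory vesicles, 3 were called higher (15.8%), EXO70B1 (0.75 ± 0.15), EXO70B2 (1.09 ± 0.22) and EXO70H7 (0.77 ± 0.13). EXO70B1 lost its call without wild type ABA replicate 2 (0.75) or 3 (0.69) or mutant ABA replicate 1 (0.72) or 3 (0.68), EXO70B2 without wild type ABA replicate 1 or 2 or mutant ABA replicate 1 or 3 (0.98 to 1.02), and EXO70H7 without wild type ABA replicate 2 (0.78) or mutant ABA replicate 1 (0.73).

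The remaining lists held few calls in edgeR's test, where 1.79% of all genes were called. Of 13 iron uptake and signalling genes BHLH101 was called and 12 were above 0 (median 0.565). Its close relatives BHLH38 (1.45 ± 0.41) and BHLH100 (2.69 ± 0.77) did not pass, and in both the lowest mutant library lay below the highest wild type library. MYB51, a regulator of indole glucosinolates, had 5.768, 5.831 and 6.367 CPM in wild type and 13.93, 14.45 and 14.74 CPM in the mutant (1.26 ± 0.16, adjusted p = 0.001), and was the single call among 20 glucosinolate genes, of which 17 were below 0. MYBL2, a repressor of flavonoid synthesis, was the single call among 18 flavonoid and anthocyanin genes (1.31 ± 0.27), and AOC3, an enzyme of jasmonate synthesis, the single call among 22 jasmonate genes (0.77 ± 0.18). Both of these calls ended after the length and GC correction (1.16 and 0.55), that of MYBL2 also without each ABA library but wild type replicate 1 (1.06 to 1.37) and that of AOC3 without any of the 6 (0.57 to 0.89). WRKY53 was the single call among 13 leaf senescence genes. At an unadjusted p under 0.05, the iron and jasmonate lists each held 5 higher and 0 lower members. The glucosinolate list held 1 higher and 2 lower, the flavonoid list 3 and 2 and the senescence list 1 and 1. DESeq2's Wald test called 2 higher and 0 lower in each of the iron and jasmonate lists. It called 1 higher and 1 lower in each of the glucosinolate and flavonoid lists, and 1 and 0 in the senescence list. In edgeR's test no gene was called among 19 clock, 19 mitotic cell cycle, 17 heat shock, 13 auxin, 12 early stress (CBF, DREB2, ZAT and ERF) and 8 starvation genes, 16 root markers, 10 stomatal markers and 2 measured seed markers. Of these 116 genes 11 were higher and 14 lower at an unadjusted p under 0.05, and DESeq2's Wald test called 2 higher and 3 lower. Over all 21322 genes, 2796 lay under that p, and DESeq2 called 591 higher and 164 lower.

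B-box zinc finger genes, transcription factors best known from light signalling and flowering, were called in both directions. Of 15 measured members BBX14, BBX15 and BBX17 were called higher and BBX29 and BBX30 lower (33.3% against 1.79% of all genes), and the family was chosen after its values were seen. BBX14 had 37.37, 33.99 and 36.35 CPM in wild type and 136.1, 152 and 160.6 CPM in the mutant (2.06 ± 0.13, adjusted p = 8.78e-06). BBX17 had 4.19, 3.537 and 2.753 CPM against 15.13, 19.99 and 12.4 CPM (2.18 ± 0.23, adjusted p = 0.000289). BBX15 had 34.71, 30.97 and 42.07 CPM against 57.42, 78.34 and 81.51 CPM (1.01 ± 0.18, adjusted p = 0.0112). All 3 were separated by genotype, BBX15 by the least, and its call was lost without wild type ABA replicate 2 (0.91) or mutant ABA replicate 2 (0.95). BBX29 had 5.472, 4.732 and 5.722 CPM against 2.756, 2.136 and 2.288 CPM (-1.15 ± 0.23, adjusted p = 0.0245). BBX30 was at 0.8604 to 1.873 CPM against 0.3006 to 0.407 CPM (-1.88 ± 0.43). The calls of BBX29 and BBX30 ended whichever of the 6 ABA libraries was left out (-1.26 to -1.07 and -2.11 to -1.57).

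Most of what was called under ABA was also called without the hormone. Untreated, 5022 genes were called (23.6%), 1869 higher in the mutant (8.77%) and 3153 lower (14.8%), and the count was 2820 without mutant untreated replicate 1 and 3242 and 3321 without wild type untreated replicates 1 and 2. Of the 382 genes called under ABA, 312 (81.7%) were called in the same direction untreated, which made up 6.21% of the untreated calls, 5 in the opposite direction and 65 not at all. Split by direction, 287 of the 344 genes higher under ABA (83.4%) were also higher untreated, and 25 of the 38 lower genes (65.8%) were also lower untreated. The share of 81.7% ranged from 68.4% to 85.4% under the alternatives run for both comparisons. Genes called lower untreated had a median log2 fold change of -0.982 untreated and -0.269 under ABA. Those called higher untreated had 0.767 and 0.371. Both sets were chosen by the untreated test, which favours large untreated values. Their smaller medians under ABA are thus not by themselves a result. Across all genes tested, which are not independent replicates and whose fits share a spread, the log2 fold changes under ABA and untreated correlated with an r (Pearson) of 0.556 and a rho (Spearman) of 0.583.

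The interaction, which tests the genotype difference under ABA minus that untreated, was called for 384 genes (1.8%), 354 with a positive value (1.66%) and 30 with a negative one (0.141%). Of these, 365 were not called under ABA, and 360 of the 365 were called untreated. Among the 382 genes called under ABA the interaction was called for 19. The count of 384 was 129 without mutant untreated replicate 2, 165 without wild type ABA replicate 2, 196 without wild type untreated replicate 2, 216 without wild type untreated replicate 1, the same number without mutant ABA replicate 3, and 236 without mutant untreated replicate 1. Light harvesting was a case of this: 24 of the 25 genes were called lower untreated (median -2.20), 1 of them under ABA, and 6 in the interaction, all positive. Of the 18 aquaporins all were called lower untreated (median -1.58), and 6 in the interaction, all positive. Of the 118 disease resistance genes 81 were called higher untreated (median 0.773), among them all 21 that were called under ABA, and 1 in the interaction, AT5G41740 (-1.45), which was chosen after its value was seen.

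**Figure D4:**
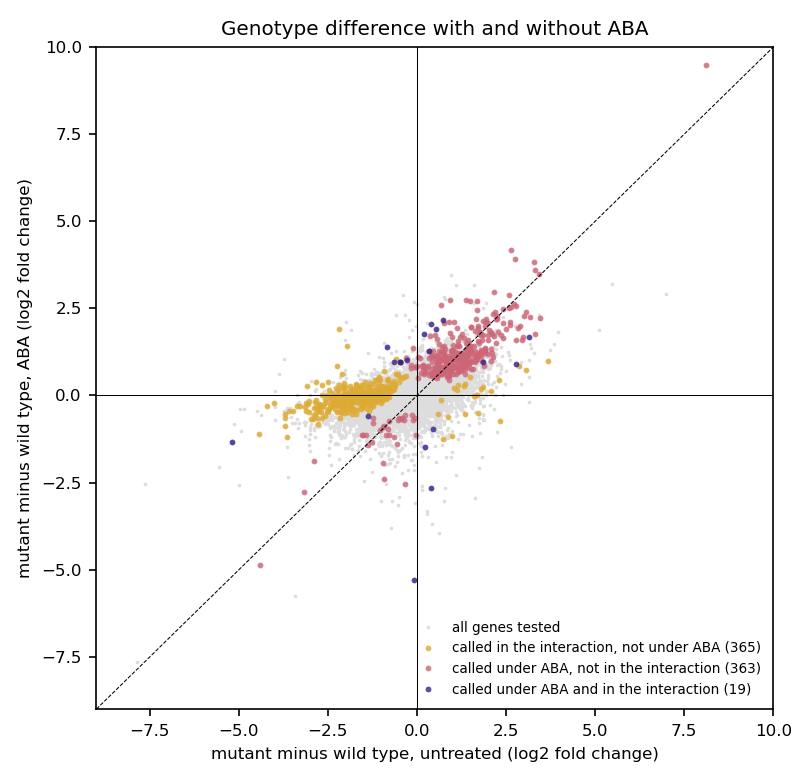
Log2 fold change between mutant and wild type for each of the 21322 genes, untreated on the x axis and under ABA on the y axis; the dashed line marks equal values. Red genes were called under ABA but not in the interaction (363), dark blue ones in both (19) and yellow ones in the interaction but not under ABA (365), most of which lie left of 0 on the x axis and near 0 on the y axis.

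A few genes differed between the genotypes more with ABA than without it. BBX14 was at 85.45 to 92.36 CPM in untreated wild type and 101.5 to 126 CPM in the untreated mutant, a log2 fold change of 0.39 ± 0.12. It was called higher untreated too (adjusted p = 0.0396), though not with the length and GC correction (-0.02). Its interaction was 1.67 ± 0.18 (adjusted p = 0.00115). BBX15 had -0.29 ± 0.18 untreated and an interaction of 1.30 ± 0.25 (adjusted p = 0.0212), a call lost without wild type untreated replicate 1 (1.29) or 2 (1.20), wild type ABA replicate 2 (1.21) or mutant ABA replicate 3 (1.21). MAKR6, a membrane-associated kinase regulator, had 2.563, 1.912 and 2.237 CPM in wild type with ABA and 8.066, 7.478 and 7.076 CPM in the mutant with ABA (1.75 ± 0.19), but 7.633 to 9.562 and 7.818 to 11.68 CPM untreated (0.19 ± 0.18; interaction 1.56 ± 0.26, adjusted p = 0.00945, and 0.0504 without mutant untreated replicate 2, at 1.49). In all 3 genes wild type ABA libraries were the lowest of the 4 groups. AT3G24750 had 2.565 to 3.94 CPM in untreated wild type and 3.154 to 4.806 CPM in the untreated mutant (0.22 ± 0.19), and an interaction of -1.69 ± 0.26 (adjusted p = 0.0055), with wild type ABA libraries as the highest of the 4 groups.

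Others were called in opposite directions, in part only without the length and GC correction. GDU4, a membrane protein gene of amino acid export, was higher by 0.96 ± 0.20 under ABA and lower untreated (-0.64 ± 0.20), though its call under ABA ended whichever of the 6 ABA libraries was left out (0.90 to 1.05). The kinase gene AT4G14480 had 14.69, 15.3 and 12.69 CPM in wild type with ABA and 7.115, 7.529 and 7.342 CPM in the mutant with ABA (-0.96 ± 0.14), and was higher untreated (0.44 ± 0.14). The transporter genes AT1G18000 and AT1G18010 were both higher by 0.95 ± 0.14 and 0.95 ± 0.13 under ABA and both lower by the same -0.47 ± 0.14 untreated. They are neighbours with nearly equal counts in every library, so reads may be shared between the copies and the values are uncertain as 2 measurements. With the length and GC correction the untreated differences of AT4G14480 (0.23), AT1G18000 (-0.16) and AT1G18010 (-0.22) were not called, while their interactions were (-1.26, 1.27 and 1.32). CYP707A3 and LHCB1.5 kept their direction but differed in size. CYP707A3 was higher by 2.77 ± 0.17 untreated, at 16.84 to 19.71 against 2.462 to 2.764 CPM (interaction -1.88 ± 0.22, adjusted p = 0.00172). LHCB1.5 was lower by far untreated, at 4.34 to 6.619 against 187.1 to 219.9 CPM (-5.21 ± 0.31; interaction 3.88 ± 0.39, adjusted p = 0.00105), and with the length and GC correction the values were -3.07 and 2.26.

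**Figure D5:**
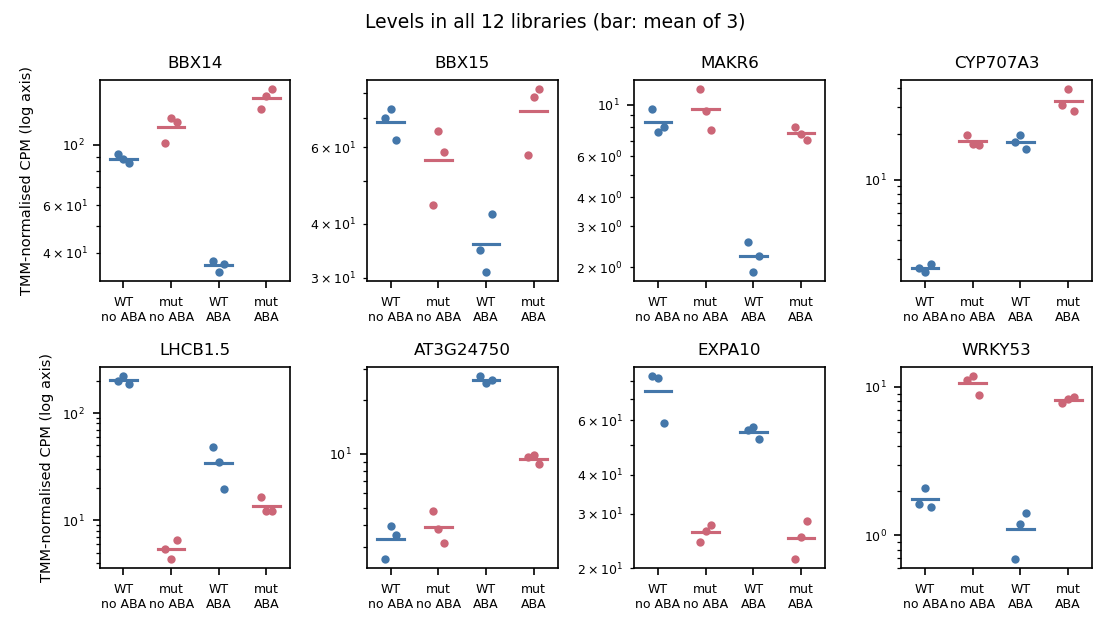
TMM-normalised CPM (log axis) of 8 genes in all 12 libraries, by genotype (WT wild type, blue; mut mutant, red) and treatment; points are libraries and bars the means of 3. For BBX14, BBX15 and MAKR6 the wild type ABA libraries are the lowest group, for AT3G24750 the highest, and for EXPA10 and WRKY53 the genotypes are apart by a similar factor with and without ABA.

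Most calls were protein-coding genes, 338 higher and 34 lower of 20537 tested (1.81%). The other calls were 4 long noncoding RNA genes, 4 pseudogenes and 2 transcribed pseudogenes. The share called was 1.86%, 1.81%, 1.56%, 1.92% and 1.85% on chromosomes 1 to 5. Over all genes tested it was 1.79%, with 1.61% called higher and 0.178% lower. Among 169 measured long noncoding RNA genes 4 were called, all higher (2.37%). AT5G01542 had 3.451, 4.111 and 4.087 CPM in wild type and 11.12, 7.529 and 9.47 CPM in the mutant (1.27 ± 0.19, adjusted p = 0.00362). AT2G36792 (0.92 ± 0.14) and AT5G36002 (1.51 ± 0.23) were called under each of the 14 alternative settings as well, and AT5G06865 (1.41 ± 0.33) lost its call with the length and GC correction (1.44), with DESeq2's size factors (1.41) and without wild type ABA replicate 2 (1.25) or 3 (1.24) or mutant ABA replicate 1 (1.21) or 2 (1.44). The 2 called of 135 transcribed pseudogenes (1.48%) were both higher, and both lost their calls in some fits without 1 ABA library. The 4 called of 152 pseudogenes (2.63%) were all lower. Besides AT5G35935.1 and AT5G24915.1 they were AT3G15310.1, a call lost without wild type ABA replicate 1 or mutant ABA replicate 2 or 3 (-1.82 to -1.61), and AT3G42658.1, lost without wild type ABA replicate 1 or any mutant ABA replicate (-5.74 to -4.18). Of neighbouring called genes there were 19 pairs, all higher and made of 37 genes, such as WRR4 with AT1G56520 and AT1G56540, the ankyrin repeat genes AT5G54710 and AT5G54720, and the iron reductase genes FRO6 and FRO7 (1.34 ± 0.20 and 0.85 ± 0.17). AT1G56520 and FRO7 lost their calls in 5 of the 6 fits without 1 ABA library, all but that without mutant ABA replicate 3 (0.81 to 0.98 and 0.82 to 0.89). How reads were divided between such related copies is not stated by the labels, so values of close copies are uncertain.

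The genotype difference moved with base composition. Across genes, log2 fold changes under ABA fell with the GC content of the exons (Spearman rho -0.407). Of 10 bins of genes by GC, the bin with the lowest GC, around 36.5%, had a median of 0.218, and the bin with the highest, around 45%, had -0.268. Of the 344 genes called higher 72 lay in the lowest bin and 14 in the highest. The mean GC content of the counts was 41.3% to 41.42% in wild type ABA libraries and 41.05% to 41.19% in mutant ABA libraries. After the correction for length and GC content, which took the rho to 0.00525, 481 genes were called (2.26%), 407 higher (1.91%) and 74 lower (0.347%), and 337 of the 382 were among them. The part of composition in single genes was not tested beyond this correction.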

How the data were processed

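The deposited table holds raw counts per gene, whole numbers for 12 libraries; per the submitters' processing notes the authors used Trim Galore 0.3.3 and edgeR with TAIR10. How reads were aligned and counted, and whether strand was used, is not stated there. Of 33610 gene IDs 32843 matched RefSeq's annotation of TAIR10.1. It gave symbols, neighbours, length and GC content of exons; no coordinate or sequence is given, since the builds carry different names. All 12 libraries were fitted in 1 model of group means with edgeR 4.0.16 in R 4.3.3 (TMM factors, filterByExpr, quasi-likelihood test, Benjamini-Hochberg adjustment); 21322 genes holding 99.96% of counts were tested, at a biological coefficient of variation of 0.185. A standard error is the absolute log2 fold change divided by the square root of F. The correction for length and GC content adds an offset from splines with 5 degrees of freedom. DESeq2 1.42.0 was an alternative. The workflow was tested on simulated data.

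The members and the 26 lists of 424 genes, of which 397 were measured, were chosen with earlier results of these data known. Named genes were the 10 largest called rises and falls at 5 CPM or more whose libraries did not overlap. Up to 4 called members of each list and a panel of 12 genes were named too. Further rules gave 8 genes called alike in both comparisons and 8 with an interaction and an untreated log2 fold change under 0.5 in size. The last rule allowed up to 6 genes called in opposite directions and in the interaction. Only GDU4, AT4G14480, AT1G18000 and AT1G18010 met it. Intervals cover counting error only.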

Additional observations from a re-analysis of the deposited data

Results flagged for a closer look

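For 12 of the genes named by the rules above, the genotype difference under ABA differed from that without the hormone. The test was that of the interaction in edgeR's quasi-likelihood test with Benjamini-Hochberg adjustment over all genes. In these genes the interaction on the log2 scale, mutant minus wild type under ABA minus the same untreated, was 3.88 for LHCB1.5 (adjusted p = 0.00105), 1.67 for BBX14 (0.00115), 1.60 for GDU4 (0.0135), 1.56 for MAKR6 (0.00945), 1.42 for AT1G18000 (0.00346), 1.41 for AT1G18010 (0.00337) and 1.30 for BBX15 (0.0212). It was -3.04 for AT4G12735 (0.0475), -1.88 for CYP707A3 (0.00172), -1.69 for AT3G24750 (0.0055), -1.40 for AT4G14480 (0.00358) and -0.90 for WRKY18 (0.0378). Genes picked after their values were seen are outside this count. Among them the interaction was also called for ABO3 (-5.2) and AT5G41740 (-1.45, adjusted p = 0.0166). That of ABO3 was lost in 6 fits that left out a library, at -5.38 to -4.74. The interactions of AT4G12735 and WRKY18 were each not called in 10 of the 12 fits that left out a library, at -3.26 to -2.61 and -0.96 to -0.78 in those fits. That of GDU4 was not called without wild type ABA replicate 2 (1.56) or mutant untreated replicate 2 (1.47). The interactions of AT4G12735 and WRKY18 were also not called with the length and GC correction (-2.97 and -0.59) or with the replicate block (-3.10 and -0.90), and that of BBX15 was not called with both together (1.12).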

How the results depend on the processing

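For the comparison under ABA the number of called genes was 755 with DESeq2's Wald test (591 higher, 164 lower), and 1095 when only the 6 ABA libraries entered the fit with a replicate block (727 higher, 368 lower), a setting added after the data were seen. The lower calls numbered 74 with the length and GC offset, 60 with that offset and the replicate block, and 25 with only the 6 ABA libraries. That last fit, without the untreated libraries, called 255 genes (230 higher), 238 of them shared with the main fit. Among genes named above, WRKY70, MYBL2, AOC3, LHCB1.5, EXO70B2, BBX30, AT5G25840, AT5G06865, AT5G24915.1 and AT3G15310.1 lost their calls in it. Leaving out each ABA library in turn gave 167 to 325 calls, 148 to 296 higher and 11 to 46 lower. The untreated libraries share in the fit, and leaving out 1 of them gave 284 to 534 calls under ABA. The lowest was without mutant untreated replicate 2 and the highest without mutant untreated replicate 1. In the untreated comparison, leaving out an untreated library gave 2820 to 5668 calls, 893 to 2225 higher and 1914 to 3443 lower. The interaction was called for 782 genes with DESeq2 (693 positive, 89 negative) and for 236 with the replicate block and the offset (211 positive), and for 129 to 478 (117 to 440 positive, 12 to 45 negative) with a library left out. Of the list members 15 were called, 41 with DESeq2, 66 with the 6 ABA libraries and the block, and 10 to 17 with an ABA library left out. The replicate block alone gave 345 calls under ABA (308 higher, 37 lower), 303 of them shared with the fit without it. Residuals of same-numbered ABA libraries correlated at 0.537, 0.0599 and 0.35 for numbers 1, 2 and 3. Those of different numbers correlated at -0.54 to 0.0977, the highest being mutant replicate 2 with wild type replicate 3. Libraries of numbers 1 and 3 thus resembled each other across genotypes, and those of number 2 hardly did. No label says that equal numbers mark a pair, so the main fit held no block, and whether the libraries are pairs was not tested. Over the fits without 1 ABA library the value turned its sign for 3 genes that were not called. For ABI1 it was -0.29 to 0.022, above 0 without wild type ABA replicate 1. For NCED3 it was -0.16 to 0.32, below 0 without mutant ABA replicate 3. For PYL4 it was -0.15 to 0.27. It was -0.15 without wild type ABA replicate 3, -0.0039 without mutant ABA replicate 1 and -0.07 without mutant ABA replicate 2. No scaling moved the median of all genes by 0.1 or more. The cause of these shifts was not tested. A count of 0 in a library allows up to 3 counts, 0.137 to 0.167 CPM in the ABA libraries, so differences below that level were not detectable, and with 3 libraries a group small differences may be missed. Under an unadjusted p of 0.05 lay 2796 of the 21322 genes tested.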
